A study of Mus musculus with 6 samples.

Results

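The genes described here are 10 members of the mouse MHC class II antigen presentation pathway, chosen by name from a table of 54532 genes: Ciita, Rfx5, Rfxap, H2-Aa, H2-Ab1, H2-Eb1, H2-DMa, H2-DMb1, Cd74 and Ifi30. All 10 names were found, each once. RNA had been sequenced from macrophages labelled as primary mouse peritoneal cells, elicited by thioglycollate, taken 4 days later and enriched by letting them adhere for 6 h. The 3 SAHH-KO libraries, which a second label field calls SAHH knockdown, were set against 3 control libraries, whose title says shControl and whose genotype field says WT. Both groups had received interferon-γ at 2 ng/mL together with lipopolysaccharide at 10 ng/mL for 8 h, so every value is from stimulated cells. SAHH is S-adenosylhomocysteine hydrolase, the enzyme encoded by Ahcy, which removes the product that inhibits cellular methyltransferases. The labels name no strain, sex or age of the mice, and do not say how the enzyme was lowered, whether the cells are 1 clone or whether replicates came from separate animals or cultures. The p-values therefore measure the spread between these libraries, which may be technical.

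MHC class II molecules carry peptides from engulfed material to CD4 T cells. An alpha and a beta chain, encoded by H2-Aa and H2-Ab1 or by an E pair that includes H2-Eb1, assemble with the invariant chain CD74, which guides them to late endosomes, and H2-DM, built from H2-DMa and H2-DMb1, then exchanges the last piece of the invariant chain for a peptide. Transcription of these genes runs through a shared promoter module, the X box bound by the RFX complex (RFX5, RFXAP and RFXANK) and CREB-type factors and the Y box bound by NF-Y, and through CIITA, a coactivator that binds no DNA itself. In macrophages CIITA is the interferon-γ-inducible step, switched on through the receptor's kinases and IRF1, and in most cells its presence sets the class II level.

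The labels were checked first. Ahcy had 5.51, 5.50 and 6.23 FPKM (fragments scaled to both gene length and library size) in the SAHH-KO libraries, against 25.8, 22.6 and 24.4 FPKM in the control libraries, although most of its 50-base words also occur in a near-identical gene. The SAHH-KO libraries held 15856261 to 17748745 reads assigned to genes and the control libraries 15540442 to 16676534. Of 12 macrophage markers 10 were expressed, and 5 were called higher in SAHH-KO. Fcgr1 had 12.5 ± 2.96 FPKM in SAHH-KO and 2.61 ± 0.117 FPKM in control, and Adgre1 164.7 ± 24.5 FPKM in SAHH-KO and 78.9 ± 1.77 FPKM in control (SD, n = 3 each). Spi1, Itgam and Cd14 were higher by ratios of 1.54, 1.43 and 1.17, the Cd14 call being lost in 7 of 13 alternatives, while Csf1r, at a ratio of 0.852, and Cd68 were not called. The part of these changes in the values of the class II genes was not tested. The summed level of the 12 markers, most of it Lyz2 and Cd14, was 9662 to 10938 FPKM in SAHH-KO and 8622 to 8921 FPKM in control. Mertk had 1 read in each group, and Mrc1 stayed under 1 FPKM in every library. Of 7 resident peritoneal markers Gata6, Timd4 and Cxcl13 had 0 reads, Selp 1, Prg4 14 and Alox15 16 in all libraries together. Icam2 had 0.861 ± 0.349 FPKM in SAHH-KO and 1.60 ± 0.252 FPKM in control. Its limma adjusted p was 0.0224, a call lost in 5 of 13 alternatives. It had 77 reads in SAHH-KO and 156 in control, and met the filter for testing, given below, mainly through the control libraries. Pycard, the inflammasome adaptor gene, had 1 read in SAHH-KO and 10 in control. Of 10 dendritic cell markers only Itgax was expressed, and the summed level of that list was 1.19 to 1.46 FPKM in SAHH-KO and 1.23 to 1.48 FPKM in control. For 10 B cell markers, none of them expressed, the sums were 0.277 to 0.488 FPKM in SAHH-KO and 0.259 to 0.283 FPKM in control. Ms4a1 and Ebf1 had 0 reads in all libraries. Pax5 had 35 reads in SAHH-KO and 3 in control, whereas Ighm had 6 in SAHH-KO and 20 in control. Of 6 neutrophil markers S100a8 had 6 reads in SAHH-KO and 164 in control. The other 5, S100a9, Ly6g, Mpo, Elane and Retnlg, were at or near 0 in both groups. Mertk, Mrc1, Pycard and most resident markers were thus at or near 0 or low, in cells labelled as elicited and stimulated. These values do not settle the labelled cell source. The class II genes found at or near 0 are so in these libraries, whatever cells they came from.

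The members fell into 2 sets. Cd74, Ifi30, Rfx5, Rfxap and H2-DMa passed the filter for testing, which was 1 FPKM in at least 3 of the 6 libraries. Ciita, H2-Aa, H2-Eb1 and H2-DMb1 stayed under 3 reads in every library and are called at or near 0. H2-Ab1 stood just outside that limit, with 3 reads in 1 library. Of the 5 tested members 3 passed as higher in SAHH-KO and 1 as lower, where a call is an adjusted p under 0.05 from limma over all 10362 genes tested. Over all tested genes 53.3% were called, 26.4% higher and 26.8% lower, so the share of members called says little by itself, and Rfx5 reached the filter mainly through the SAHH-KO libraries.

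Ciita (ENSMUSG00000022504, chromosome 16, bases 10480059 to 10528418, plus strand, GRCm38) was listed at 0 in all 6 libraries. Its longest annotated transcript has 19 exons, and 1.46% of its 50-base words occur in another gene, so nearly all of it could have received reads. A count of 0 allows up to 3 reads per library, which for a gene of this length is 0.0176 to 0.0207 FPKM. In neither group was the transactivator of class II genes detectable at this depth, 97792436 assigned reads in all.

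Some genes around Ciita were expressed. Of the 12 whose start lies within 250 kb (Ciita included), 4 passed the filter and 6, Ciita among them, were at or near 0. Nubp1, which works in iron-sulphur protein assembly, had 8.30 ± 0.599 FPKM in SAHH-KO and 8.45 ± 1.27 FPKM in control (SD, n = 3 each). Clec16a, a gene of mitophagy, had 5.42 ± 0.386 FPKM in SAHH-KO and 5.53 ± 0.692 FPKM in control. Dexi, which overlaps 3.45% of the Ciita exon bases on the opposite strand, had 1.41 ± 0.181 FPKM in SAHH-KO and 1.34 ± 0.229 FPKM in control. Of the 4 tested genes that start within 250 kb of Ciita, 0 were called by limma (adjusted p-values of 0.0963 to 0.917) and 0 had an unadjusted p under 0.05. The fit of recovered reads with voom called 1 of them, Emp2, a membrane protein gene at 2.32 ± 0.822 FPKM in SAHH-KO and 1.54 ± 0.137 FPKM in control, as higher (adjusted p = 0.0377), and so did limma without SAHH-KO replicate 2 (adjusted p = 0.0414).

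The genes of the classical alpha and beta chains were as silent as Ciita. H2-Aa, the alpha chain gene of the A molecule (ENSMUSG00000036594, chromosome 17, bases 34282744 to 34287827, minus strand), had 0 reads in every library, with a floor of 0.0895 to 0.105 FPKM. H2-Eb1, the beta chain gene of the E molecule (ENSMUSG00000060586, chromosome 17, bases 34305877 to 34316199, plus strand), also had 0 reads, with a floor of 0.142 to 0.166 FPKM. The E alpha chain gene is listed as an unprocessed pseudogene, H2-Ea-ps, and had 0 reads too. H2-Ab1, the beta chain gene of the A molecule (ENSMUSG00000073421, chromosome 17, bases 34263209 to 34269418, plus strand), had 3, 1 and 0 reads in the SAHH-KO libraries and 1, 0 and 0 in the control libraries. Such counts are at or under the floor in both groups, and no fold is given. Sequence shared with other annotated genes was not at issue, since at most 0.514% of the words of H2-Aa, H2-Eb1 and H2-Ab1 occur elsewhere. This compares genes of the reference annotation only, and the labels name no strain. Having no read is common in the table: 33.1% of its 22046 protein-coding genes had 0 reads in all 6 libraries.

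The peptide exchange factor was represented by 1 of its chains. H2-DMb1 (ENSMUSG00000079547, chromosome 17, bases 34153072 to 34160230, plus strand) had 1 read in 1 SAHH-KO library and 0 in the control libraries. It shares 22.7% of its words with its neighbour H2-DMb2, a second DM beta chain gene, and reads from such stretches cannot be placed with certainty. H2-DMb2 had 6 reads in SAHH-KO and 9 in control, so the beta chain genes together stayed near 0 too. H2-DMa, the alpha chain gene (ENSMUSG00000037649, chromosome 17, bases 34135182 to 34139101, plus strand), had 1.76, 2.52 and 2.06 FPKM in the SAHH-KO libraries, against 1.49, 1.64 and 1.26 FPKM in the control libraries. The groups did not overlap, as for 62.3% of all tested genes (30.7% with SAHH-KO above), but the lowest SAHH-KO and the highest control library lay close together. The log2 fold change, 0.33 with an SE of 0.121, had a limma adjusted p of 0.0456, and the call was lost in 9 of 13 alternatives, with adjusted p-values of 0.0308 to 0.150, among them both other scalings of the libraries and the fit on recovered reads. These levels rest on 163 reads in SAHH-KO and 122 in control. The reference annotation extends H2-DMa upstream into Brd2 on the opposite strand, 10.4% of its exon bases, whereas the table's gene starts beyond Brd2.

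**Figure D1:**
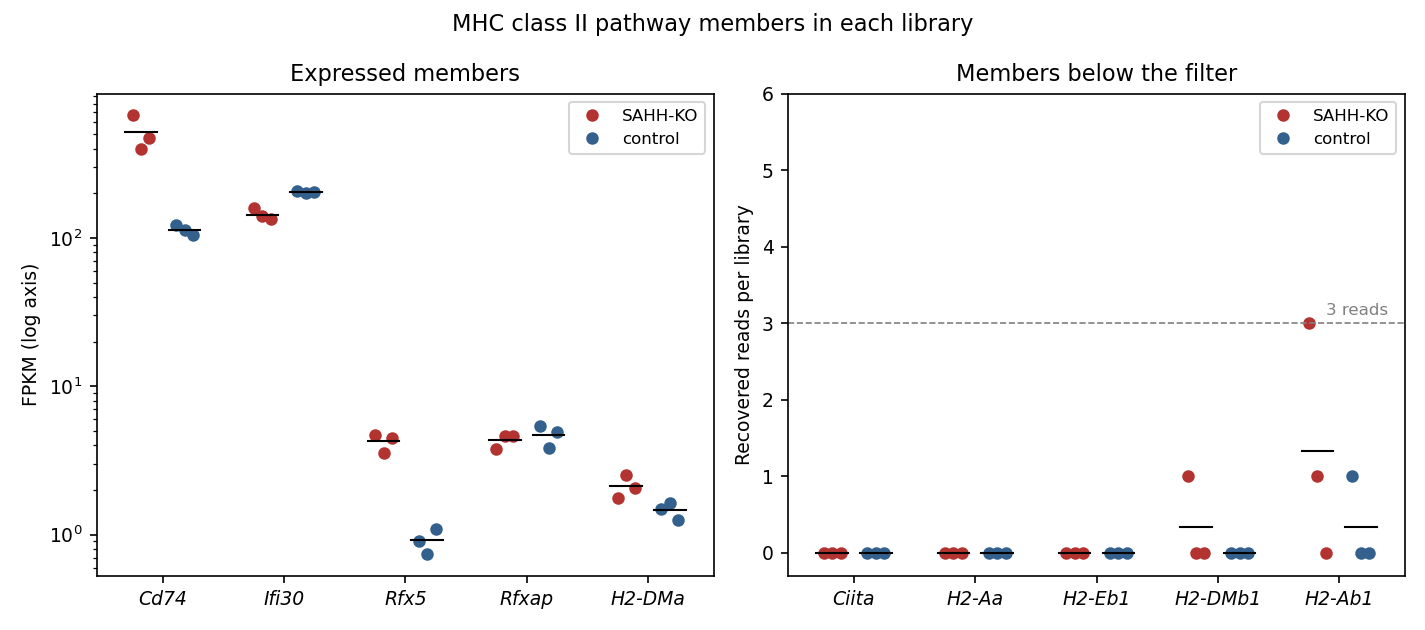
FPKM on a log axis for the 5 expressed members (left) and recovered reads per library for the other 5 (right), one point per library, with black lines at the group means and SAHH-KO left of control. Cd74 and Rfx5 lie higher in all SAHH-KO libraries, Ifi30 lower, and the right panel stays at 0 to 3 reads.

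Some promoters of the silent genes hold the letters of the module through which CIITA acts. Windows of 250 bases before to 50 after the gene start were taken from RefSeq (GRCm38.p6), which held one for 6 of the 10 members. The X box core, a consensus of 11 letters whose matches are in capitals in the first 2 lines printed here, was searched on both strands and was found in 0.968% of 32851 windows, and the Y box ATTGG, also on both strands, in 37.4%. An X box core followed on the same strand by a Y box after a gap of 10 to 30 bases was found in 7 windows, 0.0213% of all. Of these 7 windows, those of H2-Eb1, H2-DMb1 and H2-Eb2, a further E beta gene, belong to the class II locus. The windows of H2-Eb1 and H2-DMb1 are shown because they hold the pair, that of H2-Aa because it holds the Y box alone, and that of Rfx5 because it is the member with a called rise whose window was at hand. Capitals mark the X box core and the Y box of a pair, or otherwise each Y box. H2-Eb1 is from chr17:34305617-34305916 on the plus strand, H2-DMb1 from chr17:34152941-34153240 on the plus strand, H2-Aa from chr17:34287774-34288073 on the minus strand and Rfx5 from chr3:94953858-94954157 on the plus strand.
H2-Eb1: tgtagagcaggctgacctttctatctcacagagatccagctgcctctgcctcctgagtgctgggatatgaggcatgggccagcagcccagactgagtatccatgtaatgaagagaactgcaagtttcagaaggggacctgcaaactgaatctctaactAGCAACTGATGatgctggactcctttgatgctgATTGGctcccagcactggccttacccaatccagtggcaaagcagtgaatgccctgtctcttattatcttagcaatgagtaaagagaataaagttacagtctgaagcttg
H2-DMb1: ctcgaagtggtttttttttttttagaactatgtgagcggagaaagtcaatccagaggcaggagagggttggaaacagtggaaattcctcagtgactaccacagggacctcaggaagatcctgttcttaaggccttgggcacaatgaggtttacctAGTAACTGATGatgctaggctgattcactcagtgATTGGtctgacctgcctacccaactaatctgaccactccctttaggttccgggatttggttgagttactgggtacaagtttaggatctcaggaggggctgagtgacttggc
H2-Aa: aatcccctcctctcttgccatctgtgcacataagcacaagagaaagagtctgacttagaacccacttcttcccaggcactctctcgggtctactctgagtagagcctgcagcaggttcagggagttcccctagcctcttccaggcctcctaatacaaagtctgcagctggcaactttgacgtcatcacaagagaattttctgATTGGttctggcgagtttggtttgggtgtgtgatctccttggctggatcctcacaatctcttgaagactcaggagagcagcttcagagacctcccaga
Rfx5: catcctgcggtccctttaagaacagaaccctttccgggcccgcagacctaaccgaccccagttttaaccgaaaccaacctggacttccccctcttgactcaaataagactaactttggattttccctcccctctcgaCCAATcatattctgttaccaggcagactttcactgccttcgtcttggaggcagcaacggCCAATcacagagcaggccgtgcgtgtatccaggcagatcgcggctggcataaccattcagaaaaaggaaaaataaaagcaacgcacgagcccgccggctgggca
In H2-Eb1 the X box core begins 92 bases before the start and a gap of 22 bases separates it from the Y box, and a second Y box, left in lower case, begins 35 bases before the start. In H2-DMb1 the core begins 95 bases before the start and the gap is 23 bases. In H2-Aa the Y box begins 48 bases before the start, and the core as spelled here is not in the window. The Rfx5 window has 2 Y boxes, both on the minus strand and so printed as CCAAT, and no core. The Ifi30 window has neither motif. None of these windows holds the core of the interferon-stimulated response element, which was searched on both strands and found in 3.44% of all windows. A match of letters is a description and not a measured site. The 2 RefSeq windows of H2-DMa lie 9664 and 12350 bases from the gene start in the table and were not used to describe it.

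Cd74, the invariant chain gene (ENSMUSG00000024610, chromosome 18, bases 60803848 to 60812646, plus strand), was abundant without its partners. It had 669, 399 and 471 FPKM in the SAHH-KO libraries, against 122, 114 and 105 FPKM in the control libraries. The groups were far apart, and SAHH-KO replicate 1 stood above the other two. The means were 513 ± 139.6 FPKM in SAHH-KO and 114 ± 8.15 FPKM in control (SD, n = 3 each), a ratio of 4.52. The log2 fold change, 2.13 with an SE of 0.170, had a limma adjusted p of 2.38e-05 and ranged from 1.93 to 2.30 over 13 alternatives, all of them called. In this fit Cd74 was the 1 member called with a log2 fold change of at least 2, as were 1.61% of all tested genes. The ratio of FPKM means was of like size for the low gene Rfx5, at 4.66. By mean FPKM Cd74 was the 90th of 10362 tested genes in SAHH-KO and the 417th in control. No 50-base word of Cd74 occurs in another annotated gene. Fewer cells of a type and less RNA per cell cannot be told apart in bulk libraries, here or below, and the part of other cell types in the Cd74 level was not tested. The B cell and dendritic cell sums given above were under 1.5 FPKM in every library.

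Ifi30, which encodes the lysosomal thiol reductase GILT that opens disulphide bonds of antigens (ENSMUSG00000031838, chromosome 8, bases 70762774 to 70766663, minus strand), went the other way. Its level was 158, 139 and 134 FPKM in the SAHH-KO libraries, against 208, 202 and 205 FPKM in the control libraries. All SAHH-KO libraries lay below all control libraries, as for 31.6% of all tested genes, and the control libraries spread little. The log2 fold change, -0.51 with an SE of 0.0824, had a limma adjusted p of 0.00108 and a range of -0.68 to -0.46 over the alternatives, all called. The table lists Ifi30 as a processed transcript, and 8.67% of its exon bases are shared with 6330537M06Rik on the opposite strand, which had at most 0.582 FPKM in any library.

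Set against each other within a library, these genes changed places. The ratio of Cd74 to Ifi30 in FPKM was 4.23, 2.86 and 3.53 in the SAHH-KO libraries, against 0.586, 0.564 and 0.514 in the control libraries. Ifi30 was thus the more abundant transcript in every control library and Cd74 in every SAHH-KO library. The ratio of Cd74 to H2-DMa was 256 ± 113 in SAHH-KO and 78.2 ± 7.54 in control (SD, n = 3 each).

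The RFX subunits differed. Rfx5, the subunit that binds the X box (ENSMUSG00000005774, chromosome 3, bases 94954075 to 94961561, plus strand), had 4.72, 3.56 and 4.50 FPKM in the SAHH-KO libraries, against 0.902, 0.744 and 1.10 FPKM in the control libraries. The groups did not overlap, and the control values sat at the filter. The log2 fold change, 1.46 with an SE of 0.122, had a limma adjusted p of 3.13e-05 and kept its call in 13 of 13 alternatives. It ranged from 1.35 to 2.22 over these alternatives, and the ratio of the FPKM means was 4.66. Its exons share 26.8% of their bases with B230398E01Rik on the opposite strand, a gene with at most 0.0664 FPKM in any library. Rfxap, a subunit without which the complex does not form (ENSMUSG00000036615, chromosome 3, bases 54803115 to 54807791, minus strand), had 3.78, 4.63 and 4.64 FPKM in the SAHH-KO libraries, against 5.41, 3.86 and 4.91 FPKM in the control libraries. These groups overlapped, with a log2 fold change of -0.09, an SE of 0.125 and a limma adjusted p of 0.556. The ratio of Rfx5 to Rfxap was 0.997 ± 0.241 in SAHH-KO and 0.194 ± 0.0285 in control (SD, n = 3 each).

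The rest of the promoter complex was present. Of the 10 genes listed for it 9 were tested, and 3 were called higher and 1 lower (26.4% and 26.8% over all tested genes). Rfxank, the third RFX subunit, had 1.46 ± 0.0847 FPKM in SAHH-KO and 1.05 ± 0.119 FPKM in control (log2 fold change 0.27, limma adjusted p = 0.0484), and Crem, a factor of the CREB family, 1.75 ± 0.0736 FPKM in SAHH-KO and 1.27 ± 0.169 FPKM in control (0.28, adjusted p = 0.0436). The Rfxank call was lost in 12 of 13 alternatives and that of Crem in 9. With either other scaling of the libraries the list counted 1 higher and 2 lower. Over all 10362 tested genes TPM called 2006 higher and 3894 lower, and assigned-read scaling 2033 and 3905. Nfyc, a subunit of NF-Y, fell to 7.64 ± 1.21 FPKM in SAHH-KO, against 13.8 ± 0.638 FPKM in control (log2 fold change -0.78, adjusted p = 0.000578). Its partners Nfya, at 16.6 ± 0.358 FPKM in SAHH-KO and 15.5 ± 1.37 FPKM in control, and Nfyb, at 2.68 ± 0.172 FPKM in SAHH-KO and 2.61 ± 0.344 FPKM in control, were not called, and both flip to a negative fold change under the other scalings. Creb1 had 3.42 ± 0.241 FPKM in SAHH-KO and 3.02 ± 0.290 FPKM in control and was not called.

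Genes of the interferon-γ route that leads to Ciita, with its brakes, moved in both directions. Of 16 listed genes 15 were tested, 8 of them called higher and 1 lower (26.4% and 26.8% over all tested genes), with a median log2 fold change of 0.39, against -0.01 over all tested genes. Irf1, a transcription factor that acts on the inducible Ciita promoter, had 30.5, 17.3 and 18.3 FPKM in the SAHH-KO libraries, against 1.80, 1.53 and 1.69 FPKM in the control libraries (log2 fold change 3.06, limma adjusted p = 6.43e-06). As for Cd74, SAHH-KO replicate 1 was the highest. Jak2, a receptor kinase, had 56.9 ± 9.88 FPKM in SAHH-KO and 16.4 ± 2.14 FPKM in control, and Irf2 6.37 ± 0.207 FPKM in SAHH-KO and 2.42 ± 0.313 FPKM in control (adjusted p = 2.21e-05 and 3.45e-05). Jak1, the other receptor kinase gene, was the one called lower, at 28.7 ± 0.976 FPKM in SAHH-KO and 34.2 ± 2.64 FPKM in control (log2 fold change -0.24, adjusted p = 0.0349, lost in 6 of 13 alternatives). Among the 8 called higher were brakes on the response. Il10ra, a receptor chain of the inhibitory cytokine interleukin-10, had 30.8 ± 1.03 FPKM in SAHH-KO and 16.9 ± 0.929 FPKM in control (adjusted p = 5.70e-05), and Socs1, a feedback inhibitor of the receptor kinases, 1.65 ± 0.218 FPKM in SAHH-KO and 1.02 ± 0.230 FPKM in control (adjusted p = 0.0253, lost in 6 of 13 alternatives).

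Among the chains of the interferon-γ receptor 1 was called. Ifngr1 had 6.56 ± 0.278 FPKM in SAHH-KO and 4.65 ± 0.696 FPKM in control (log2 fold change 0.43, limma adjusted p = 0.00898). Ifngr2 had 21.7 ± 0.159 FPKM in SAHH-KO and 23.3 ± 1.73 FPKM in control and was not called, though both other scalings of the libraries call it lower. Prdm1, a repressor of Ciita in plasma cells, was not tested, with 3 reads in SAHH-KO and 15 in control. When TPM was used, 6 genes of the route passed as higher and 4 as lower, against 2006 and 3894 of all 10362 tested genes. When libraries were scaled to assigned reads 7 did as higher and 4 as lower, against 2033 and 3905.

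**Figure D2:**
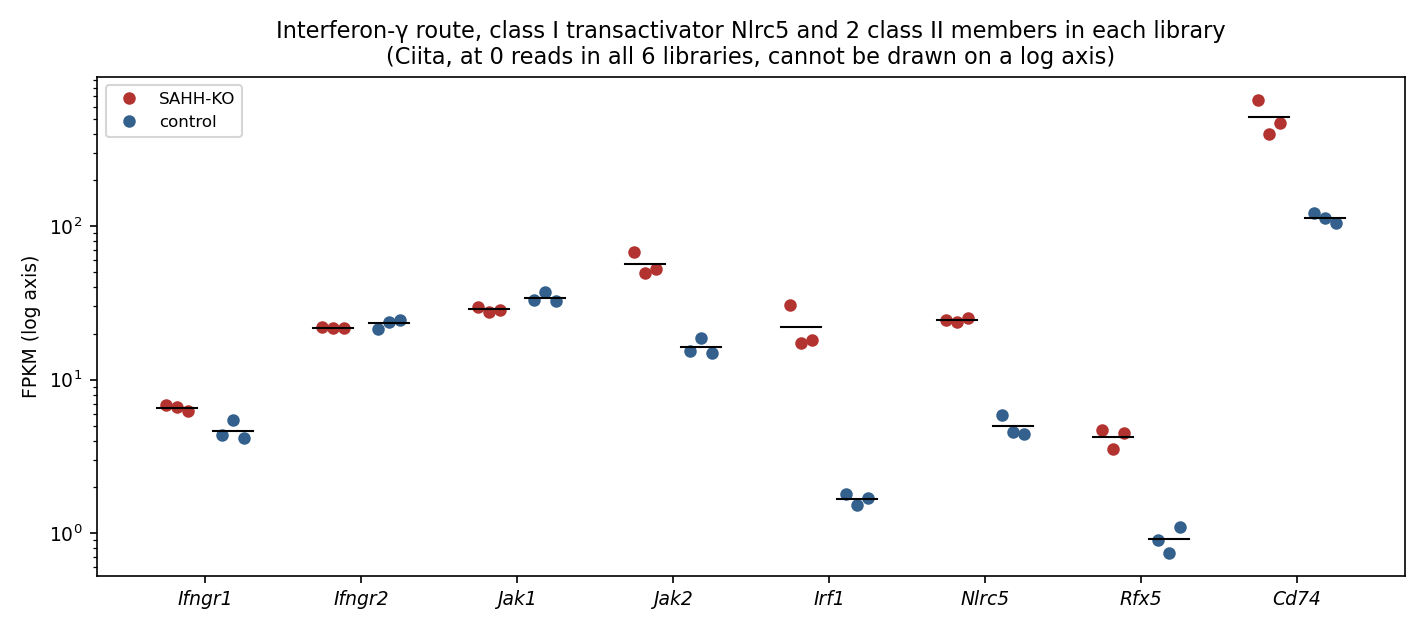
FPKM on a log axis for genes of the interferon-γ route, the class I transactivator gene Nlrc5 and 2 class II members, one point per library, lines at group means, SAHH-KO left of control. Irf1, Jak2, Nlrc5, Rfx5 and Cd74 are higher in all SAHH-KO libraries, while Ciita, at 0 reads, cannot be drawn on this axis.

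Nlrc5, the relative of Ciita that drives class I genes through a similar promoter module, had 24.6, 23.6 and 25.3 FPKM in the SAHH-KO libraries, against 5.91, 4.59 and 4.43 FPKM in the control libraries (log2 fold change 2.10, limma adjusted p = 2.39e-06). The ratio of Cd74 to Nlrc5 was 27.1, 16.9 and 18.6 in the SAHH-KO libraries, against 20.6, 24.8 and 23.8 in the control libraries, ranges that overlap. Of 11 class I genes listed all had a positive fold change and 10 were called higher (26.4% over all tested genes), as were 10 with each of the other scalings. Tap1, a subunit of the peptide transporter, had 54.8 ± 3.11 FPKM in SAHH-KO and 4.42 ± 0.485 FPKM in control, Tap2, its partner, 17.9 ± 0.624 FPKM in SAHH-KO and 3.80 ± 0.573 FPKM in control, and Psmb10, of the immunoproteasome, 82.9 ± 1.29 FPKM in SAHH-KO and 30.4 ± 1.62 FPKM in control. Their limma adjusted p-values were 1.05e-07, 2.86e-06 and 2.81e-06.

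The class II locus itself was expressed on one side and silent on the other. From H2-K1 to Notch4 on chromosome 17 the table lists 27 protein-coding genes, of which 10 were tested, 6 were called higher, against 26.4% of all tested genes, and 11 were at or near 0, against 43.3% of all protein-coding genes. None of the 10 had a negative fold change in this scaling. Tap1, Tap2, Psmb8 and Psmb9, which process and carry peptides for class I molecules and lie between H2-DMb1 and H2-Ob, were all called higher, as were H2-K1 and H2-DMa. Psmb8 had 44.5 ± 1.19 FPKM in SAHH-KO and 29.0 ± 3.73 FPKM in control, and Psmb9 14.7 ± 1.58 FPKM in SAHH-KO and 4.64 ± 0.239 FPKM in control. From H2-Ob to H2-Eb2 none of the 7 genes was tested and 6 had 0 reads in every library, the exception being H2-Ab1. Beyond them no gene up to Notch4 was tested. H2-Ob and H2-Oa, chains of the DM inhibitor H2-DO, had 0 reads in all for H2-Ob, and 7 reads in SAHH-KO and 1 in control for H2-Oa.

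Genes that process antigen for class II molecules moved in both directions. Of 15 tested of 16 listed, 4 were called higher and 6 lower, where 26.4% and 26.8% of all tested genes were, with a median log2 fold change of -0.0025. Sppl2a, the protease that removes the membrane stub of CD74, rose to 37.7 ± 2.80 FPKM in SAHH-KO, against 17.2 ± 2.57 FPKM in control (log2 fold change 1.10, limma adjusted p = 9.41e-05). Lgmn, the asparaginyl endopeptidase, had 206 ± 12.4 FPKM in SAHH-KO and 125 ± 14.4 FPKM in control, with an adjusted p of 0.000423. Cst3, the gene of the cysteine protease inhibitor cystatin C, had 520.4, 543 and 526 FPKM in the SAHH-KO libraries, against 344, 322 and 330.3 FPKM in the control libraries (adjusted p = 8.95e-05). Ctsc, which activates serine proteases, fell to 13.3 ± 2.84 FPKM in SAHH-KO, against 34.1 ± 2.28 FPKM in control (log2 fold change -1.32, adjusted p = 0.000141). Ctss, the cathepsin that trims the invariant chain, had 652, 605 and 596 FPKM in the SAHH-KO libraries, against 551, 640 and 631 FPKM in the control libraries, and was not called (log2 fold change 0.03, adjusted p = 0.813). The ratio of Cd74 to Ctss was 0.826 ± 0.186 in SAHH-KO and 0.188 ± 0.0283 in control (SD, n = 3 each).

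The other lists around class II were small. Of 5 partners of CD74 outside antigen presentation 3 were tested and 1 was called higher (26.4% over all tested genes). This was Cd44, the signalling coreceptor of CD74, at 188 ± 4.86 FPKM in SAHH-KO and 140.0 ± 14.8 FPKM in control (limma adjusted p = 0.00413). Cd83, which counters the removal of class II molecules from the surface, rose to 37.8 ± 1.54 FPKM in SAHH-KO, against 11.6 ± 1.96 FPKM in control (limma adjusted p = 1.32e-05). The ubiquitin ligase gene March1 had 2 reads in SAHH-KO and 6 in control. March8, a second ligase gene, had 8.96 ± 0.366 FPKM in SAHH-KO and 9.88 ± 0.212 FPKM in control and was not called, though both other scalings of the libraries call it lower. In the costimulation list 6 of 7 genes were tested, 5 called higher and 1 lower, set beside the same 26.4% and 26.8%. Cd40 had 136 ± 11.6 FPKM in SAHH-KO and 18.2 ± 2.03 FPKM in control, Icam1 95.7 ± 16.3 FPKM in SAHH-KO and 32.3 ± 2.61 FPKM in control, and Icosl 7.10 ± 1.86 FPKM in SAHH-KO and 1.84 ± 0.230 FPKM in control (adjusted p = 4.77e-07, 2.55e-05 and 0.000111). Cd86 was the one called lower, and it met the filter through the control libraries alone, at 0.214 ± 0.0547 FPKM in SAHH-KO and 1.68 ± 0.186 FPKM in control (adjusted p = 5.80e-05).

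Of 13 coactivators and chromatin partners of CIITA, 3 were called higher and 1 lower, set beside 26.4% and 26.8% of all tested genes. Ezh2, a histone methyltransferase, fell to 3.57 ± 0.302 FPKM in SAHH-KO, against 6.81 ± 0.772 FPKM in control (limma adjusted p = 0.000379), and the acetyltransferase gene Kat2b rose to 4.68 ± 0.546 FPKM in SAHH-KO, against 3.05 ± 0.213 FPKM in control (adjusted p = 0.00429). Ncoa1, a coactivator gene, had 2.81 ± 0.153 FPKM in SAHH-KO and 2.01 ± 0.155 FPKM in control (adjusted p = 0.0132), a call that both other scalings removed. Over all lists, each gene counted once, 37 of 77 tested genes were called higher and 11 lower, beside the same 26.4% and 26.8%. Of those called higher, 10 were class I genes listed for comparison. With TPM scaling 29 were called higher and 18 lower, where 2006 and 3894 of all 10362 tested genes were. This scaling moves the median of all tested genes by -0.15 on the log2 scale.

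**Figure D3:**
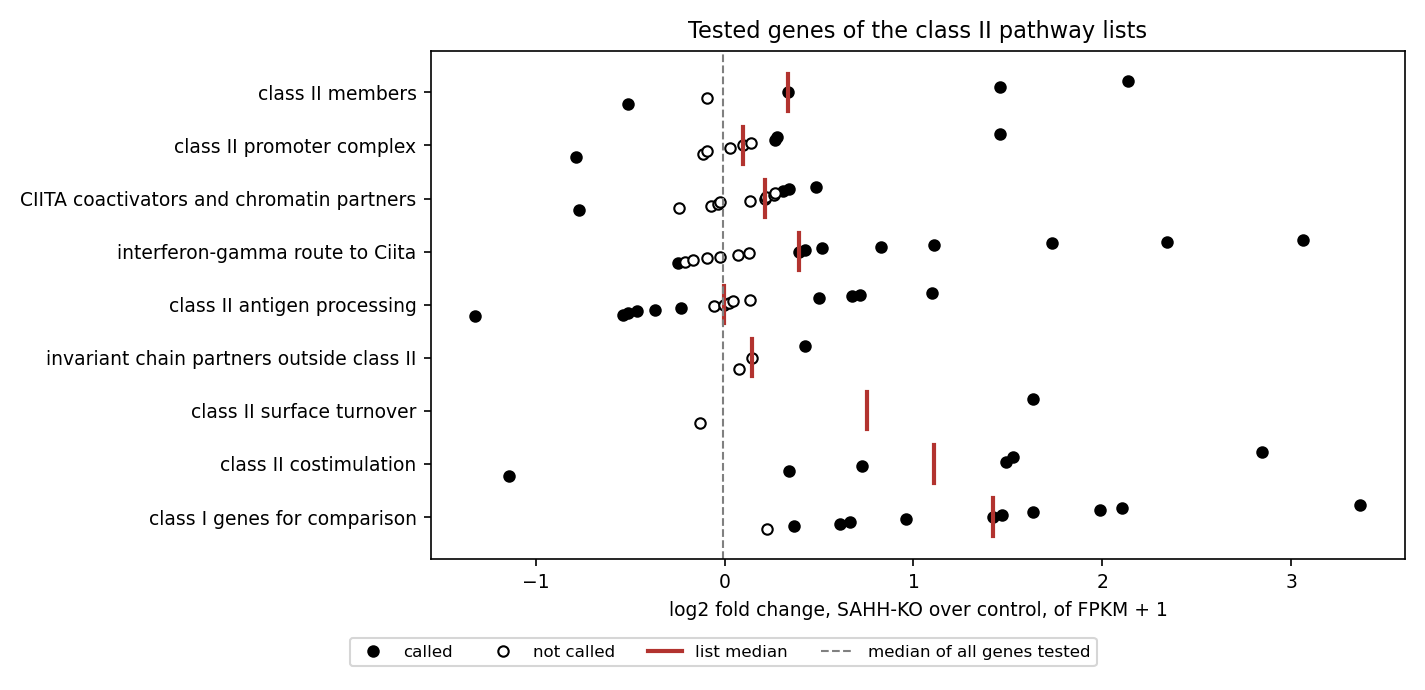
Log2 fold change, SAHH-KO over control, of each tested gene in the lists around class II (filled points passed the test, open points did not), with the list median as a red bar and the median of all tested genes as a dashed line. The medians of the class I and the costimulation lists lie furthest to the right, although the costimulation gene Cd86 lies at -1.14. Antigen processing genes fall on both sides of the dashed line.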

How the data were processed

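The authors deposited 1 table of FPKM values with a gene length for each gene. Per the submitters' processing notes it came from FastQC, Trim Galore, STAR and featureCounts on GRCm38 (mm10); versions, settings and the use of strand are not given in the sources used here. FPKM times gene length was a whole multiple of 1 step in 100% of the values above 0, within 0.01 of a read, which gave the reads per gene. The implied library sizes equalled median-of-ratios sizes (ratio 1 in each library). For a 1 kb gene, 3 reads were 0.168 to 0.197 FPKM. Floors cover counting error only.

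Genes with FPKM of at least 1 in 3 of 6 libraries were tested with limma 3.58.1 (R 4.3.3, trend) on log2(FPKM + 1), two-sided, Benjamini-Hochberg adjusted over 10362 genes. Adjusted p-values are from this fit, and log2 fold changes are on the log2(FPKM + 1) scale, which understates changes of low genes. The same kind of fit was also run on simulated data, with results not given here. Ratios and means are in FPKM. Shared 50-base words and exons are from GENCODE M21, where 53499 of 54532 gene identifiers have the same start and end. No 2 libraries were identical (chi-square per degree of freedom within groups 3.97 to 29.1). The members and lists were chosen with earlier results of these data known. Named are the members, up to 4 called genes per list by p, genes of the locus and of the Ciita surroundings, and others chosen after their values were seen; correlations of genes with Cd74, also planned, are left out because the 2 groups stand apart. Some genes that the lists count are not reported here by name. Alternatives were another pseudocount, other filters, TPM, assigned-read scaling, voom on the recovered reads, a replicate block and leaving out each library.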

Additional observations from a re-analysis of the deposited data

How the results depend on the processing

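Over the 13 alternatives Cd74, Rfx5 and Ifi30 kept direction and call, and Rfxap was never called. The called genes of the pathway lists in the lower direction numbered 18 with TPM and 18 with assigned-read scaling, against 11. Members called higher numbered 2 in place of 3 wherever H2-DMa lost its call. Genes called over the table were 2006 higher and 3894 lower with TPM and 2033 and 3905 with assigned reads, against 2736 and 2782, and without 1 library they ranged from 2236 to 2934 higher and 2199 to 2969 lower. Fold changes near 0 of genes that were not called changed sign. With TPM and assigned reads these were Ctss (-0.14 and -0.13), Dexi (-0.067 and -0.048), Nfya (-0.058 and -0.054) and Nfyb (-0.11 and -0.088). Without 1 library the ranges were -0.042 to 0.065 for Ctss, -0.026 to 0.115 for Dexi, -0.036 to 0.10 for Nfyb, -0.084 to 0.063 for Clec16a and -0.13 to 0.062 for Nubp1. Equally numbered libraries deviated together only weakly (correlations 0.0955, 0.101 and -0.00557), and 4 of 6 correlated best with their own number. With the number as a replicate block 2729 genes were higher and 2761 lower, and 3 members higher and 1 lower. The cause of these changes was not tested. Depth limits the genes at or near 0, where 1 to 3 reads decide the value.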
